A study of Arabidopsis with 6 samples.

Results

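The 5 genes described here encode regulators of chloroplast development in Arabidopsis: the GARP transcription factors GLK1 (AT2G20570) and GLK2 (AT5G44190), the GATA zinc finger factors GNC (AT5G56860) and CGA1 (AT4G26150), and the plastid pentatricopeptide repeat protein GUN1 (AT2G31400). They were chosen by locus identifier from the 19763 genes listed per library, and all 5 are listed in every library. Transcripts were measured by RNA sequencing in seedlings of the PCD8 RNAi-21 line, which carries an RNA interference construct against PCD8 by its label, and of the wild type (WT). Both genotypes spent 4 days in darkness and were harvested then (0 h) or after light for 0.5 or 2 h. Each of the 6 combinations of RNAi-21 or WT with 0, 0.5 or 2 h of light is 1 library, so no value has a replicate error, and nothing shows whether RNAi-21 stands for other lines. Since no dark library matches the later harvests, light and elapsed time cannot be told apart.

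GLK1 and GLK2 are closely related factors that activate nuclear genes for chlorophyll synthesis and for the light-harvesting antenna, and loss of both leaves plants pale. GNC and CGA1 form a second pair, which promotes greening and chloroplast division and responds to light, nitrate and cytokinin. GUN1 acts inside the plastid and is known for signalling from damaged or undeveloped plastids to the nucleus, where GLK1 is among the genes that fall when such signals are active. In dark-grown seedlings the plastids are etioplasts, and light starts their change into chloroplasts.

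Levels are read as FPKM, which is scaled for both the length of a transcript and the size of its library, so that levels of different genes can be compared. Differences use log2(FPKM + 1), a scale that understates the change of weak transcripts, and a size of 1 on it is called 2-fold. Tests come from 1 additive limma fit of genotype and light time over the 6 libraries and the 18441 genes that reached an FPKM of 1 anywhere. With 2 residual degrees of freedom, the fit measures how far a gene's genotype difference varied between times. Its standard errors (SE) pull that variance towards a trend over all genes, weighted by 4.93 prior degrees of freedom. Neither measures the spread between plants. Depth is unknown, because no counts were used. The level of PCD8 itself is not analysed here.

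The WT library at 0.5 h stood apart in seed storage transcripts: the 5 genes CRU3, CRA1, CRU2, OLEO1 and SESA3 summed to an FPKM of 6.04, 15.6 and 31.9 at 0, 0.5 and 2 h in RNAi-21, against 1.34, 172 and 2.24 in WT. The labels give the tissue as leaf. The leaf and cotyledon markers RBCS1A, LHCB1.3, CA1 and RCA were all listed and summed to between 3690 and 6118. Of 7 root markers 6 were listed, none at 0, and without the abundant PYK10 they summed to between 27.7 and 45.5, so root transcripts were present in libraries labelled leaf.

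Measured per length, GLK2 and GUN1 were the abundant transcripts and CGA1 the scarcest, in all 6 libraries. In the dark GUN1 was first in both genotypes, ahead of GLK2, while GLK1 and GNC lay between 3.95 and 7.29 FPKM and CGA1 at 0.37 and 0.39. Among all listed genes in the dark, GUN1 stood above 85.3% in RNAi-21 and above 82.8% in WT, and CGA1 above 4.49% in RNAi-21 and above 4.71% in WT. After 2 h CGA1 stood above 39.8% of genes in RNAi-21 and above 32.1% in WT. GLK1 and GNC changed places with light: GNC exceeded GLK1 at all 3 times in RNAi-21, but in WT it was below GLK1 in the dark and above it at 0.5 and 2 h. These orders rest on 1 library each, so neighbours such as GLK1 and GNC in the dark cannot be separated from library error.

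**Figure D1:**
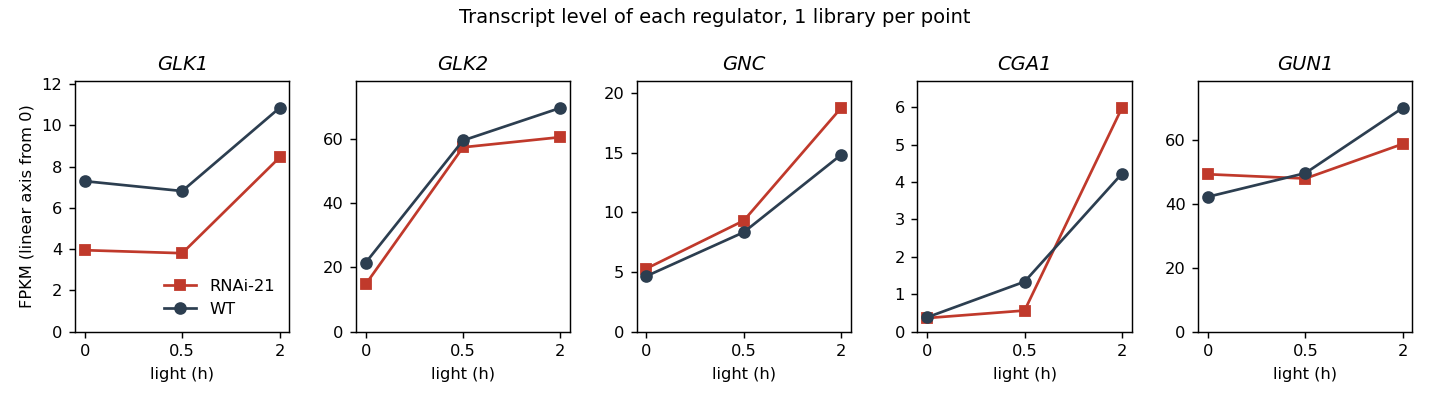
FPKM of each regulator against hours of light, on linear axes that start at 0 and differ between panels; RNAi-21 squares and WT circles each stand for 1 library. GLK1 lies lower in RNAi-21 at all 3 times, GLK2 is at 57.4 and 59.5 after 0.5 h, and CGA1 reaches 5.98 in RNAi-21 and 4.22 in WT at 2 h.

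GLK1 was lower in RNAi-21 than in WT at all 3 times, and its genotype effect over the times was the lowest of the 5 members, although in FPKM CGA1 had a lower ratio at 0.5 h. Its FPKM was 3.95, 3.81 and 8.44 at 0, 0.5 and 2 h in RNAi-21, against 7.29, 6.82 and 10.8 in WT. Each RNAi-21 value lay below the WT value of the same time, and the RNAi-21 value at 2 h also lay above the WT values at 0 and 0.5 h. In the dark the difference was -0.74, an FPKM ratio of 0.54, and 0.86% of all genes tested were lower than that. At 0.5 h it was -0.70, with 1.38% of genes lower, and at 2 h it was -0.33, with 11.6% lower. Over the 3 times the genotype effect on GLK1 was -0.59 ± 0.12 (SE), which did not pass in limma (adjusted p = 0.172, and 0.126 to 1 over 10 alternatives), with the same sign at 3 of 3 times. Its unadjusted p was 0.0019, and 203 genes had a smaller one.

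GLK2, the partner of GLK1, was 1 of the 2 members that rose at 0.5 h, with GNC, and had the larger effect of the 2. Its FPKM was 14.8, 57.4 and 60.5 at 0, 0.5 and 2 h in RNAi-21, against 21.5, 59.5 and 69.6 in WT. Both dark libraries lay below all 4 light libraries. The dark pair differed by -0.51, with 2.57% of genes lower, whereas the difference was -0.05 at 0.5 h and -0.20 at 2 h. The genotype effect over the times was -0.25 ± 0.11 and did not pass (adjusted p = 0.414, limma). At 0.5 h GLK2 was higher than in the dark by 1.89 in RNAi-21 and by 1.43 in WT, which ranks it 95th from the highest among 18441 genes in RNAi-21 and 75th in WT. Over both genotypes it rose by 1.66 ± 0.14 at 0.5 h (adjusted p = 0.0036, limma), and 29 genes had a smaller p. From 0.5 to 2 h it did not pass, with an effect of 0.15 ± 0.14 (adjusted p = 0.455, limma). On the log2 scale 96.1% of the 2 h difference had been reached at 0.5 h in RNAi-21, and 86.5% in WT.

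GLK1 did not share that early step. Its difference at 0.5 h from the dark was -0.04 in RNAi-21 and -0.09 in WT, and 0.93 and 0.51 at 2 h. Over both genotypes it rose by 0.72 ± 0.15 at 2 h (adjusted p = 0.0098, limma), after an effect of -0.06 ± 0.15 at 0.5 h that did not pass (adjusted p = 0.967, limma). The 2 h call is lost in a fit without a genotype term (adjusted p = 0.11). The ratio of GLK2 to GLK1, in FPKM, was therefore 3.73, 15.1 and 7.17 at 0, 0.5 and 2 h in RNAi-21, against 2.94, 8.73 and 6.42 in WT. It was highest at 0.5 h in both genotypes, and higher in RNAi-21 at each time. The summed FPKM of the pair was 18.7, 61.2 and 68.9 at those times in the RNAi-21 libraries, against 28.8, 66.3 and 80.4 in WT.

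**Figure D2:**
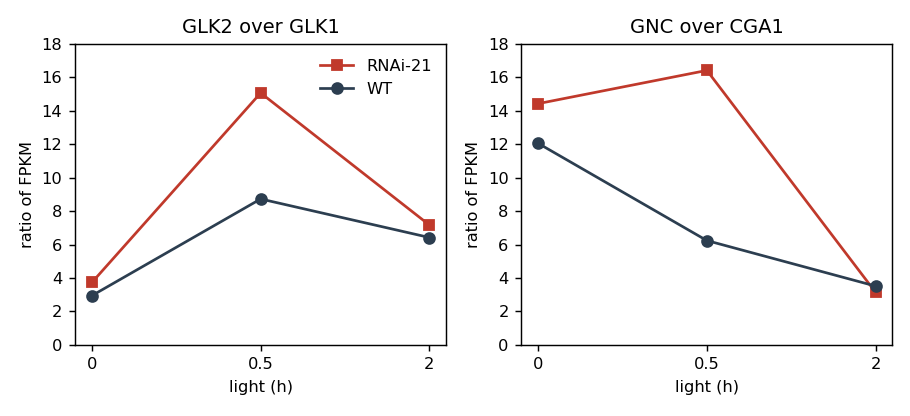
Ratio of FPKM within each related pair against hours of light, 1 library per point, on axes from 0. The ratio of GLK2 to GLK1 peaks at 0.5 h at 15.1 in RNAi-21 and 8.73 in WT, and the ratio of GNC to CGA1 ends at 3.14 in RNAi-21 and 3.51 in WT.

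GNC rose in steps of similar size at both light times. Its FPKM was 5.30, 9.32 and 18.8 at 0, 0.5 and 2 h in RNAi-21, against 4.67, 8.35 and 14.8 in WT. Every later library lay above every earlier one, whichever the genotype, and RNAi-21 lay above WT at each time. Over both genotypes GNC rose by 0.72 ± 0.12 at 0.5 h (adjusted p = 0.031, limma) and by 1.57 ± 0.12 at 2 h (adjusted p = 0.00013, limma), and from 0.5 to 2 h it rose by 0.85 ± 0.12. The 0.5 h call is lost in a fit without a genotype term (adjusted p = 0.065, limma). The responses of the genotypes differed by -0.01 at 0.5 h and by 0.17 at 2 h, without a test. RNAi-21 was higher than WT by 0.15, 0.14 and 0.32 at the 3 times, and the genotype effect of 0.21 ± 0.10 did not pass (adjusted p = 0.462, limma).

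CGA1, the closest relative of GNC, was near the bottom of the measured range in the dark. Its FPKM was 0.37, 0.57 and 5.98 at 0, 0.5 and 2 h in RNAi-21, against 0.39, 1.34 and 4.22 in WT. The 2 h libraries lay above the other 4, and the 0.5 h libraries differed most between the genotypes. The difference of RNAi-21 from WT was -0.02 in the dark, -0.58 at 0.5 h and 0.42 at 2 h, and the FPKM ratio at 0.5 h was 0.42. At these low levels the scale matters: with a pseudocount of 0.1 the 0.5 h difference is -1.11. The genotype effect of -0.06 ± 0.19 did not pass (adjusted p = 0.933, limma). From 0.5 to 2 h CGA1 was higher by 2.15 in RNAi-21 and by 1.16 in WT, and 1.76% of genes had responses that differed between the genotypes by at least the 1.00 seen here. Over both genotypes CGA1 rose by 2.13 ± 0.24 at 2 h (adjusted p = 0.00063, limma), while at 0.5 h its effect of 0.48 ± 0.24 did not pass (adjusted p = 0.552, limma). Expressed in FPKM, CGA1 at 0.5 h was 1.55 times its dark level in RNAi-21 and 3.46 times in WT. At 2 h it was 16.3 times its dark level in RNAi-21 and 10.9 times in WT. The ratio of GNC to CGA1 was 14.4, 16.4 and 3.14 at 0, 0.5 and 2 h in RNAi-21, against 12.1, 6.24 and 3.51 in WT, with dark CGA1 values too low for a firm ratio.

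GUN1 varied least among the 5. Its FPKM was 49.3, 48.0 and 58.8 at 0, 0.5 and 2 h in RNAi-21, against 42.3, 49.7 and 70.1 in WT. The 2 h libraries were the highest in each genotype, RNAi-21 was above WT in the dark, and it was below WT at 0.5 and 2 h. The difference of RNAi-21 from WT was 0.22 in the dark, -0.05 at 0.5 h and -0.25 at 2 h, and with the opposite signs the genotype effect was -0.03 ± 0.11 (adjusted p = 0.948, limma). GUN1 was higher at 2 h than in the dark by 0.25 in RNAi-21 and by 0.72 in WT. Over both genotypes it rose by 0.48 ± 0.13 at 2 h (adjusted p = 0.032, limma). That call is lost when organelle-encoded genes are left out and library totals are equalised, with an effect of 0.41 and an adjusted p of 0.09.

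On the log2(FPKM + 1) scale none of the 5 members differed 2-fold between RNAi-21 and WT at any time, whereas with a pseudocount of 0.1 CGA1 did at 0.5 h, at -1.11. Over all genes tested, 0.564% did so in the dark, 1.27% at 0.5 h and 0.797% at 2 h, so a list of 5 with none is near the background. The additive limma fit called 0.168% of all genes for genotype and 0 of the 5 members, and 1 of the 5, GLK1, had an unadjusted p under 0.05, as had 2294 genes in all. With the deposited values GLK1 and GLK2 were below 0 and GNC above 0 at all 3 times, and CGA1 and GUN1 had both signs. Organelle-encoded genes were then dropped and the totals made equal. That moved the median of all genes by 0.05 in the dark, by 0.05 at 0.5 h and by -0.10 at 2 h. The sign of GLK2 at 0.5 h, where its difference was -0.05, is therefore not firm. Under that scaling the split of 2-fold genes in the dark became 37 higher and 50 lower in RNAi-21, in place of 31 and 73.

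**Figure D3:**
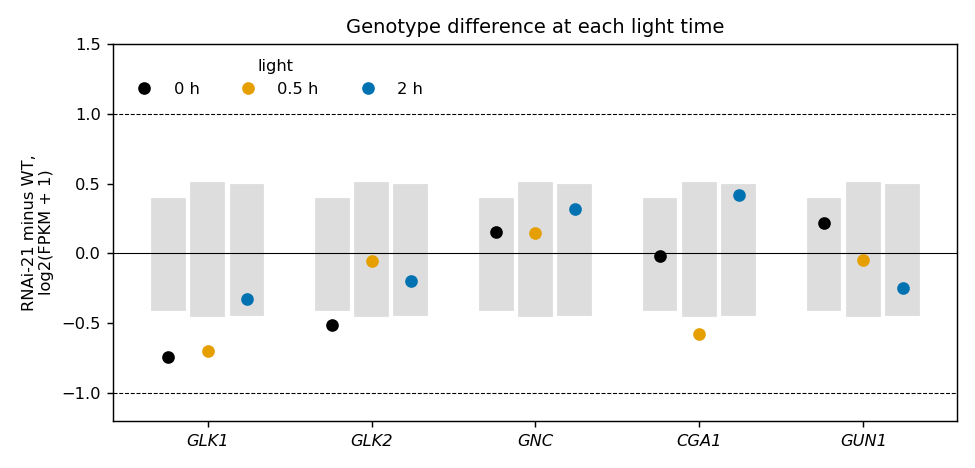
RNAi-21 minus WT on the log2(FPKM + 1) scale for each regulator at 0, 0.5 and 2 h of light, 1 library on each side; grey bars span the 5th to 95th percentiles of 18441 genes and dashed lines mark 2-fold. GLK1 in the dark and at 0.5 h, GLK2 in the dark and CGA1 at 0.5 h lie below the grey bars, at -0.74, -0.70, -0.51 and -0.58, and no point reaches a dashed line on this scale, although CGA1 at 0.5 h is at -1.11 with a pseudocount of 0.1.

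All 5 members rose by 2 h of light. At 0.5 h 1 member, GLK2, was at least 2-fold higher than in the dark in each genotype, where 1.78% of all genes were in RNAi-21 and 0.819% in WT. CGA1 in WT was then at 3.46 times its dark FPKM, but 0.75 higher on the log2(FPKM + 1) scale. At 2 h GLK2, GNC and CGA1 were at least 2-fold higher in each genotype, where 8.85% of all genes were in RNAi-21 and 7.8% in WT. In the limma fit 2 of 5 members rose at 0.5 h, GLK2 and GNC, and none fell, where 1.24% of all genes rose and 1.47% fell. At 2 h 5 of 5 rose, where 17.1% of all genes rose and 15.8% fell. From 0.5 to 2 h CGA1 was the 1 member at least 2-fold higher in each genotype, where 6.49% of all genes were in RNAi-21 and 6.68% in WT. With a pseudocount of 0.1 GLK1 and GNC passed that size too in RNAi-21, at 1.13 and 1.002. In limma GLK1, GNC and CGA1 rose over that interval, against 15.2% of all genes, and GLK2 and GUN1 did not pass. All 5 calls at 2 h held when the 0.5 h libraries, which include the WT library with seed storage transcripts, were left out. That alternative was added after seeing the data. Its fit leaves 1 residual degree of freedom, so it cannot show that the calls do not depend on those libraries. The GUN1 call is lost with totals equalised (adjusted p = 0.09, limma) and the GLK1 call without a genotype term (adjusted p = 0.11, limma). At 2 h in RNAi-21 the scaling with totals equalised moves the median of all genes by -0.14 and the 2-fold split to 1365 higher and 1092 lower, in place of 1632 and 805. From 0.5 to 2 h the same scaling moves the 2-fold split in RNAi-21 to 884 higher and 821 lower, in place of 1197 and 462, and the limma calls to 2120 that rose and 3293 that fell, in place of 2801 and 2216. GLK1, GNC and CGA1 rose under it too.

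**Figure D4:**
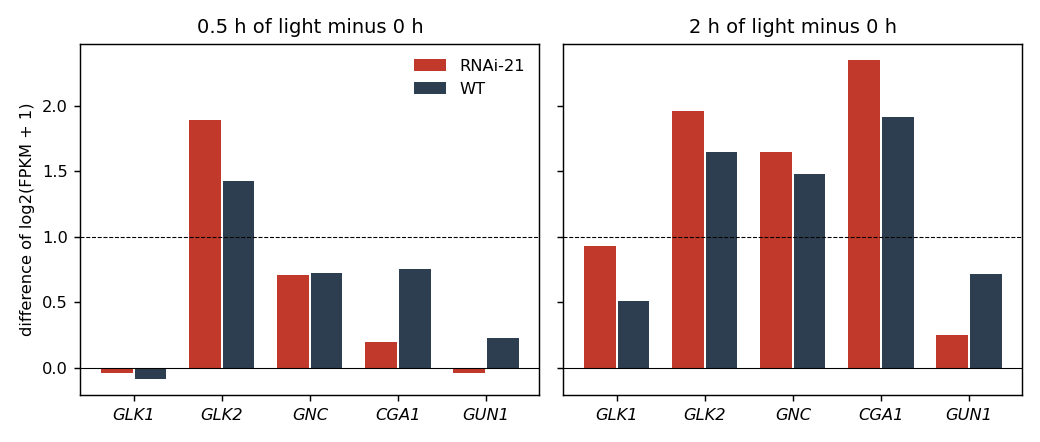
Difference of log2(FPKM + 1) from the dark after 0.5 h (left) and 2 h (right) of light for each regulator, 1 library on each side; bars start at 0 and the dashed line marks 2-fold. On this scale GLK2 alone passes the line at 0.5 h, at 1.89 in RNAi-21 and 1.43 in WT. CGA1 is highest at 2 h, at 2.35 in RNAi-21 and 1.91 in WT. Its FPKM ratio to the dark in WT at 0.5 h is 3.46.

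Profiles over the 6 libraries were compared by the root mean square distance between log2(FPKM + 1) values after each gene's own mean was subtracted, among the 6524 genes that have a symbol and reach an FPKM of 5 anywhere. This distance describes the same 6 libraries and carries no test. The gene most like GLK1 was the antenna gene LHB1B2 (AT2G34420), at a distance of 0.12. LHB1B2 had an FPKM of 1055, 886 and 2262 at 0, 0.5 and 2 h in RNAi-21, against 1819, 1820 and 2428 in WT. It therefore shared with GLK1 the lower RNAi-21 values at all 3 times, although it has near-identical LHCB1 copies and its separate value is uncertain. Next came the methylesterase gene MES16 and ZF14, at 0.16 and 0.18.

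For GLK2 the closest profiles were the B-box gene COL1 at 0.20, the abscisic acid signalling phosphatase gene ABI1 at 0.23 and the B-box gene BBX28 at 0.23. For GNC they included the MAP kinase kinase gene MKK5 at 0.13 and bHLH34 at 0.14. For CGA1 they were all genes of plastid proteins: the ferredoxin gene FED A at 0.13, PnsB3 of the NDH complex at 0.15 and the plastid elongation factor gene SCO1 at 0.17. FED A had an FPKM of 145, 181 and 748 at 0, 0.5 and 2 h in RNAi-21, against 165, 210 and 560 in WT. For GUN1 they were the gyrase gene GYRB2, NPGR2 and the formin gene FH6, at 0.03 to 0.04. Among the members themselves GUN1 and GLK1 lay closest at 0.37, then GNC and CGA1 at 0.40, whereas GLK1 and GLK2 lay 0.74 apart. As a description over the same 6 libraries, Pearson's r was 0.63 for GUN1 and GLK1 and 0.94 for GNC and CGA1, so the order of these pairs depends on the measure.

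Genes that GLK factors are known to activate were followed in a list of 23 chlorophyll synthesis and antenna genes, of which 20 were tested. For genotype none of the 20 passed in limma, and the list's median differences between RNAi-21 and WT were -0.03 in the dark, -0.35 at 0.5 h and 0.16 at 2 h, against -0.01, -0.03 and -0.02 over all genes. With totals equalised the dark median turns to 0.03, the 0.5 h median stays at -0.29 and the 2 h median falls to 0.045. The number of list genes above 0 at 2 h is then 14 in place of 16. At 0.5 h 18 of the 20 were below 0, and LHCB1.4 at -1.50 and LHCA2 at -1.07 were at least 2-fold lower in RNAi-21, as were 0.428% of all genes. LHCB1.4 and the LHCB2 genes have close copies, so their separate values are uncertain. GLK1 differed between RNAi-21 and WT by -0.74 in the dark, -0.70 at 0.5 h and -0.33 at 2 h. GLK2 differed by -0.51, -0.05 and -0.20 at those times. A link between these levels and the list was not tested. In the 0.5 h libraries the 4 leaf and cotyledon markers were all below 0, with a median of -0.57. At 2 h all 4 were above 0, with a median of 0.22, or 0.10 with totals equalised. LHCB1.3 is itself an antenna gene. RCA and CA1 rose by 2.32 and 0.84 at 2 h of light in limma, so these markers do not report tissue alone. The WT library at 0.5 h also holds the seed storage transcripts. The part of the marker difference or of the seed storage transcripts in the lower list values at 0.5 h was not tested. CAO, which makes chlorophyll b, was the highest at 0.35.

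**Figure D5:**
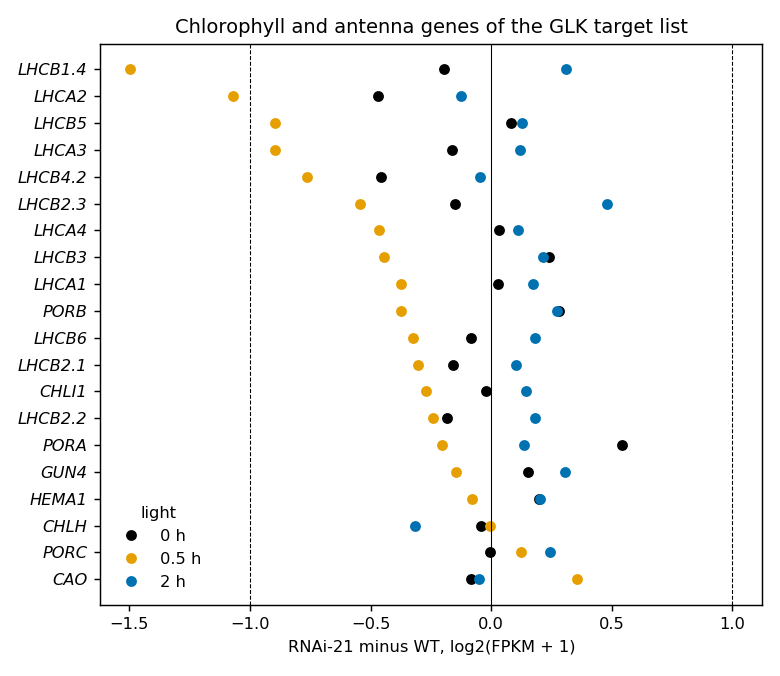
RNAi-21 minus WT on the log2(FPKM + 1) scale for 20 chlorophyll synthesis and antenna genes at 0, 0.5 and 2 h of light, ordered by the 0.5 h value, with dashed lines at 2-fold; each point sets 1 library against 1. At 0.5 h 18 of 20 points lie below 0, and at 2 h 16 of 20 lie above it, against 14 with totals equalised.

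After 2 h of light 14 of those 20 genes rose and 2 fell in limma, where 17.1% of all genes rose and 15.8% fell. LHCB2.2, encoding a major antenna protein, rose by 3.36 ± 0.13 (adjusted p = 2.3e-05), and LHCB2.1 by 3.19 ± 0.13. GUN4, an activator of Mg-chelatase, rose by 2.61 ± 0.14 (adjusted p = 3.5e-05, limma). The protochlorophyllide reductase gene PORA fell, with an effect of -2.96 ± 0.17 (adjusted p = 4.9e-05, limma), as did PORB. At 0.5 h CHLH and CAO were the members of the list that passed, rising by 0.73 and 0.99, where 1.24% of all genes rose. Without a variance trend 1 passed.

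Of 21 other GATA genes 18 were tested, and none passed for genotype. At 0.5 h 1 fell and none rose, GATA9 with an effect of -1.04 ± 0.14 (adjusted p = 0.015, limma), and 2 fell with median-ratio scaling or a filter of 5. Over all genes 1.47% fell and 1.24% rose at 0.5 h. At 2 h 3 fell, GATA2 at -2.35 ± 0.19, GATA4 at -2.22 ± 0.15 and GATA9 at -1.60 ± 0.14, and 4 rose by 0.40 to 0.76, namely GATA16, GATA1, GATA7 and GATA10. These counts of 18 are near the shares of all genes, 15.8% that fell and 17.1% that rose, and with totals equalised 2 of the list rose and without a genotype term 1. GATA2 and GATA4 are known to promote light-type growth. GATA2 had an FPKM of 28.4, 11.6 and 5.19 at 0, 0.5 and 2 h in RNAi-21, against 33.55, 21.5 and 5.31 in WT. GATA4 had an FPKM of 122, 75.7 and 28.7 at the same times in RNAi-21, against 173, 124 and 32.1 in WT. Both were lower at each later time in each genotype. GATA16, a B-class relative of GNC and CGA1, rose by 0.55 ± 0.15 at 2 h (adjusted p = 0.029, limma).

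Among 7 partners and GARP relatives of GLK factors, all tested, none passed for genotype or at 0.5 h, and at 2 h 2 rose and 3 fell, where 17.1% of all genes rose and 15.8% fell. APRR2, a GARP factor related to the GLK pair, rose by 1.53 ± 0.13 (adjusted p = 0.00017, limma). Its FPKM was 8.18, 13.2 and 25.7 at 0, 0.5 and 2 h in RNAi-21, against 10.5, 13.3 and 32.0 in WT. The G-box binding factor gene GBF3 rose by 1.32 ± 0.21 (adjusted p = 0.0031, limma), and GBF1 and the clock genes BOA and LUX fell, with effects of -0.35, -0.73 and -0.74.

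Regulators placed upstream of the GLK or GATA pairs were tested in 15 of 16 cases, and none passed for genotype. At 0.5 h HY5, a bZIP activator of greening, rose by 2.47 ± 0.19 (adjusted p = 0.0033, limma), and the DELLA repressor gene GAI fell, with an effect of -1.29 ± 0.12 (adjusted p = 0.0055, limma). Those were the only 2 calls of the list at 0.5 h, where 1.24% of all genes rose and 1.47% fell. HY5 had an FPKM of 13.2, 103 and 215 at 0, 0.5 and 2 h in RNAi-21, against 18.01, 78.0 and 181 in WT. At 2 h 3 rose, HY5, PIF4 and PIF5, and 4 fell, GAI, the brassinosteroid genes BZR1 and BIN2 and the cytokinin response regulator gene ARR1. The last 3 had effects of -0.69, -0.65 and -0.49. Over all genes 17.1% rose and 15.8% fell at 2 h, so the counts of this list are close to the background.

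In the list of other GUN loci and proteins linked to plastid signalling, 13 of 14 genes were tested and none passed for genotype. At 2 h 6 rose and 1 fell, where 17.1% of all genes rose and 15.8% fell. The largest effects were GUN4 at 2.61, the Mg-chelatase subunit gene GUN5 (CHLH) at 2.54, the plastid chaperone gene HSP90C at 2.12 and the ferrochelatase gene FC1 at 1.93. GUN4 and GUN5 are also in the list of chlorophyll synthesis and antenna genes, so their rise is counted in both lists. GUN2, the haem oxygenase gene, fell, with an effect of -0.48 ± 0.11 (adjusted p = 0.013, limma). GUN1, at 0.48, was thus among the smaller calls at 2 h. Of 3 genes for PPR-SMR proteins, the family of GUN1, 2 were tested and both rose at 2 h: PTAC2 of the plastid transcription complex by 0.55 ± 0.14 (adjusted p = 0.023, limma) and AT5G46580 by 0.85 ± 0.14 (adjusted p = 0.0031, limma). With totals equalised 1 of them rose.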

How the data were processed

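Values were read from 6 deposited tables, 1 per library. The authors' deposited values were taken as FPKM, which no header or label names: they are not whole numbers, their sums differ between libraries (757504 to 891009) and unnamed loci carry Cufflinks-style identifiers. HISAT and Bowtie2 are named in the submitters' processing notes. What quantified transcripts, on which build and gene models, is not given in the sources used here. Depth is unknown, so no counting interval is given. Gene names came from the RefSeq TAIR10.1 table, which matched 19532 of 19763 listed genes. The labels' 6 groups hold 1 library each.

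Values were transformed as log2(FPKM + 1), for genes that reached an FPKM of 1 in any library. Pairs of single libraries were compared without a test. The additive fit used limma 3.58.1 in R 4.3.3 with a variance trend (prior of 4.93 degrees of freedom), Benjamini-Hochberg adjustment over 18441 genes and a threshold of 0.05, and was checked on simulated data. Tables were made with Python 3.11.15, pandas 2.3.3 and numpy 2.4.6, and figures with matplotlib 3.10.9. The members, lists and comparisons were chosen with earlier results of these data known. Named are the 5 members, the 3 genes nearest each in profile (1 of them is not reported here), and in each list up to 4 genes per comparison with the largest values and those that passed where 5 or fewer did. The seed storage genes and other genes named beyond this rule were chosen after their values were seen. Alternatives were median-ratio scaling, equalised totals without organelle-encoded genes, a filter of 5 or none, a pseudocount of 0.1, a size of 2, no variance trend, no light time or genotype term, and leaving out each time.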

Additional observations from a re-analysis of the deposited data

Results flagged for a closer look

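In 5 cases a difference has opposite signs in 2 groups. None was tested, since each rests on single libraries. The difference of RNAi-21 from WT for CGA1 was positive at 2 h and negative at the earlier times, so the 2 h value exceeds the dark value by 0.44 and the 0.5 h value by 1.00. For GUN1 the difference was positive in the dark and negative later, by -0.27 at 0.5 h and by -0.47 at 2 h relative to the dark. The same numbers mean that GUN1 differed from the dark by -0.04 in RNAi-21 and by 0.23 in WT at 0.5 h, responses that are -0.27 apart. Responses at least 0.27 apart at 0.5 h were seen in 31.4% of all genes.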

How the results depend on the processing

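With a pseudocount of 0.1, RNAi-21 minus WT for CGA1 at 0.5 h becomes -1.11, and the light differences become 0.52 (0.5 h) and 3.70 (2 h) in RNAi-21 and 1.56 and 3.15 in WT for CGA1, 1.08 at 2 h in RNAi-21 for GLK1, and 1.81 in RNAi-21 and 1.65 in WT at 2 h for GNC. With totals equalised, the 2 h differences in RNAi-21 become 1.80 for GLK2, 1.495 for GNC and 0.085 for GUN1, and the 2 h limma effect of GUN1 becomes 0.41 and is lost. Without a genotype term, the 0.5 h effect of GNC (0.72) and the effects of GLK1 at 2 h against the dark (0.72) and against 0.5 h (0.79) are lost, with adjusted p of 0.065, 0.11 and 0.097 in limma. The genotype effect turns to 0.20 for CGA1 without the 0.5 h libraries and to 0.084 for GUN1 without the 2 h libraries, fits with 1 residual degree of freedom. The cause was not tested. From 0.5 to 2 h in RNAi-21, totals equalised turn GLK2 to -0.15 and leave 0.78 for GLK1, 0.72 for GNC and 0.059 for GUN1, median-ratio scaling gives 1.01 for GLK1, and a pseudocount of 0.1 gives 1.13 for GLK1, 1.002 for GNC and 3.19 for CGA1 (1.59 in WT). In the comparisons with the dark, between genotypes and in limma, 318 values of members kept their side of the threshold. Direction was checked for limma effects and for single-library differences of at least 1 in size. Smaller differences among the 318 may have changed sign. For single-library differences the count of 318 also required a move smaller than the fitted standard deviation of 1 library, which 8 values did not meet. A further 2 values reversed, 3 gained a call and 4 lost one. The filter settings cannot alter a difference between single libraries, so some of the 318 were fixed in advance. Over all genes, 2-fold genotype counts at 0, 0.5 and 2 h were 104, 234 and 147, against 362, 589 and 497 with a pseudocount of 0.1, 62 and 91 at 0 and 2 h with a filter of 5, and 14, 22 and 17 at a size of 2. The 31 limma genotype calls became 19 without a filter, 15 without a trend, 7 without a light time term, and 176, 155 and 6 without the 0, 0.5 and 2 h libraries. At 0.5 h against the dark, 496 genes in RNAi-21 and 353 in WT became 852 and 726 with a pseudocount of 0.1. At a size of 2 the light calls are lost for GLK2 (1.89 and 1.97 at 0.5 and 2 h in RNAi-21, 1.43 and 1.65 in WT), for GNC at 2 h (1.65 in RNAi-21, 1.48 in WT) and for CGA1 in WT at 2 h (1.91 against the dark, 1.16 against 0.5 h). No paired analysis was possible because the labels give no replicate numbers by which samples could be paired, though the limma fit compares the genotypes within each light time. Depth is unknown, which limits CGA1 most.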
